A study of Homo sapiens with 2 samples.

Results

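To explore where LDB1 sat around the receptors through which blood cells receive growth factor signals, the deposited LDB1 peaks were read at 10 genes: KIT, FLT3, EPOR, CSF1R, CSF2RB, CSF3R, IL3RA, IL6R, TEK and CD34. The genes were taken from a list of receptors of progenitor, red cell and granulocyte growth factors, and a peak was assigned to a gene when it overlapped the gene body, extended by 50 kb on each side, by any base. They are 10 of 20015 protein-coding genes of GENCODE release 44, and 25 of 11046 LDB1 peaks lay in their windows. CD34 is a surface sialomucin of progenitors and not a cytokine receptor, so the other 9 genes are the receptors in the strict sense. None of the 25 peaks was counted at more than 1 of the 10 genes.

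The peaks came from CUT&Tag, in which a transposase is brought to a chromatin protein by an antibody and inserts sequencing adapters into the DNA around it. It was performed on cells labelled as NB4, a single human acute promyelocytic leukemia cell line, with 1 library for the LDB1 antibody, labelled as LDB1 overexpression, and 1 library for IgG, labelled as untreated. The effects of antibody and treatment therefore cannot be told apart, and without replicates the groups were not tested against each other. Each peak came with a position and a length, not with a read count or height, so depth is unknown and a gene without a peak is one where none was called at that depth. Intervals of shares below are 95% Wilson intervals, which cover counting error within this 1 library only.

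Growth factor receptors of blood cells fall into receptor tyrosine kinases, which carry their own kinase, and hematopoietin receptors, whose chains have no kinase and signal through bound JAK kinases and STAT factors. LDB1 does not bind DNA itself. In red cell and progenitor chromatin it is known to join LMO2 with GATA and TAL1 proteins, a complex whose binding sequence is a composite of an E-box, or what remains of one, and a GATA motif at a short distance.

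Of the 25 peaks, 6 held this composite anywhere along their length (24%, against 22.4% of all peaks), and 5 of the stretches are shown because they carry the 2 parts of the motif side by side. All sequences are from the hg38 reference, 5′ to 3′ on the strand given. The capitals run from CTG, the end of an E-box, over a spacer of 7 or 8 bases to the GATA motif, here GATA preceded by A or T and followed by A or G.
CSF1R, in an intron of its neighbour HMGXB3, chr5:150026955-150027074, plus strand: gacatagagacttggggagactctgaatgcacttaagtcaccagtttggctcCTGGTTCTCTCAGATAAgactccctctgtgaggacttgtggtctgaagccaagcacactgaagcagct
CSF2RB, beyond its 3′ end, chr22:36982265-36982384, minus strand: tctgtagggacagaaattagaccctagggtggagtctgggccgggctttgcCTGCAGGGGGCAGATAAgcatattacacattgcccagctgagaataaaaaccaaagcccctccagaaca
CSF3R, upstream, chr1:36517613-36517732, plus strand: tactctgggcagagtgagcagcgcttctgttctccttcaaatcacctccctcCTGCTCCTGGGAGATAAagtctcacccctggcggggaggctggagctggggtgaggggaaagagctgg
IL3RA, beyond its 3′ end, chrX:1383649-1383768, minus strand: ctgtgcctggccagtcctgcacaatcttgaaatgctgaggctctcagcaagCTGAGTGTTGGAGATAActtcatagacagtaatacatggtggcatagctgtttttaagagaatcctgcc
IL6R, beyond its 3′ end, chr1:154497088-154497207, minus strand: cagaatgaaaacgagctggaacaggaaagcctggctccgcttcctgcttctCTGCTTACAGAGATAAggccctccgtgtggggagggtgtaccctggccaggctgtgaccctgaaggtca

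A further 3 stretches are shown because they hold single motifs at peaks described below, with the GATA motifs of the central 200 bp in capitals in the first pair (the IL6R stretch holds another outside these 200 bp, in lower case) and the E-box CAGCTG in capitals in the last.
CSF3R, upstream, chr1:36492703-36492852, minus strand: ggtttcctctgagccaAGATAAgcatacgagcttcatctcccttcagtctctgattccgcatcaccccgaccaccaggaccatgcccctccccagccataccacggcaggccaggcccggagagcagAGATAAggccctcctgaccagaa
IL6R, upstream, chr1:154384771-154384920, minus strand: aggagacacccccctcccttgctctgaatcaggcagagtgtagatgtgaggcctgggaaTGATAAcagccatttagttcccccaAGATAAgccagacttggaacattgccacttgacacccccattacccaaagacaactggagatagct
EPOR, in the transcribed leader at its start, chr19:11384283-11384312, minus strand: tCAGCTGcgtccggcggaggCAGCTGctga

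Results showed that 7 of the 10 genes had at least 1 peak in their windows, against 44.8% of all protein-coding genes. At least 2 peaks were found at 5 of the 10 genes (25.8% of all genes), and at least 3 at 4 genes (15.8%). At least 5 were found at 2 genes, CSF1R and CSF3R (6.33%), and 10 at CSF1R alone (1.00%). The median was 1.5 peaks per gene, against 0 over all protein-coding genes, and the mean density was 1.81 peaks per 100 kb of window against 0.829. Counted over the 10 windows together there were 1.61 peaks per 100 kb (Poisson interval 1.04 to 2.37). Without CSF1R, left out after seeing the data, the pooled value was 1.08 (0.602 to 1.77). These intervals treat the peaks as independent, though several are neighbours at 1 gene. The 0.829 is a mean of densities per gene, so the pooled values are a different measure. CSF1R alone held 10 of the 25 peaks. The 5 hematopoietin receptor chains (EPOR, CSF3R, CSF2RB, IL3RA and IL6R) each had a peak and 13 together. Of the 4 receptor tyrosine kinases (CSF1R, KIT, FLT3 and TEK) 1 had any. This split was made after seeing the counts, and it was not seen in the related genes read below. There 8 of 18 other hematopoietin receptor chains and 4 of 6 related tyrosine kinases had a peak. The single peaks of CSF2RB and IL3RA were also nearest to the canonical start site of another gene.

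**Figure D1:**
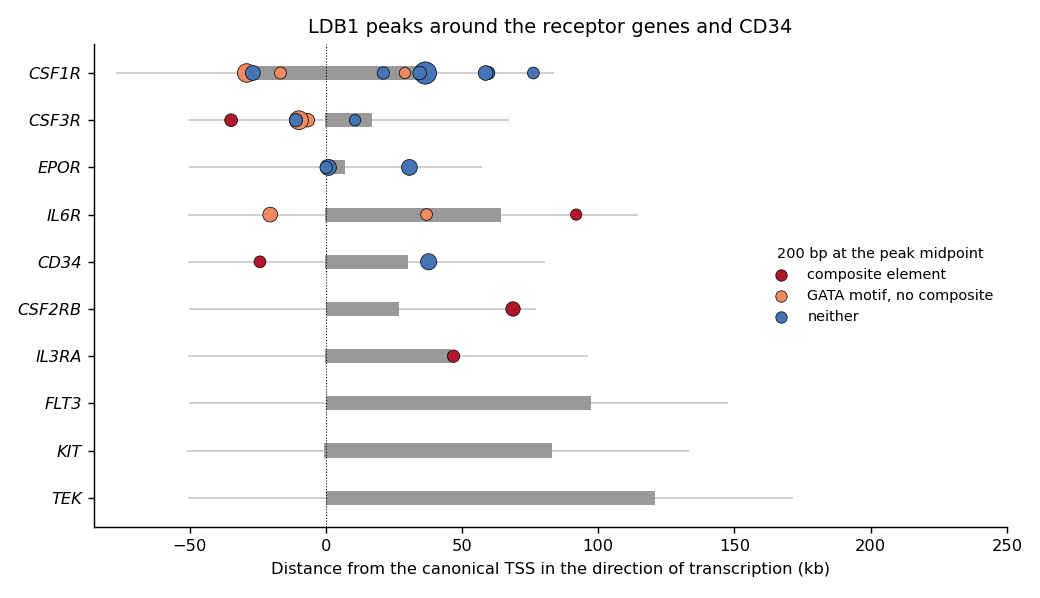
Position of each LDB1 peak (points, by midpoint, larger for longer peaks) around the 10 genes, as distance in kb from the canonical transcription start site in the direction of transcription. Grey bars are gene bodies, thin lines the 50 kb added on each side, and colours give the motif in the central 200 bp, and the windows of FLT3, KIT and TEK hold no point.

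**Figure D2:**
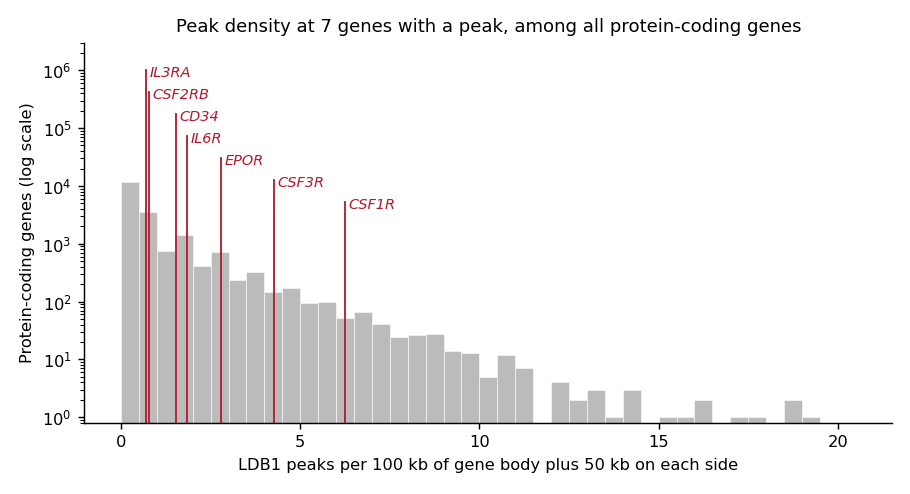
Number of protein-coding genes (log scale) by LDB1 peaks per 100 kb of gene body plus 50 kb on each side, in bars, with vertical lines at the 7 genes with a peak. CSF1R is at 6.25 and CSF3R at 4.26, while IL3RA and CSF2RB are at 0.685 and 0.789.

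CSF1R encodes the receptor tyrosine kinase for macrophage colony-stimulating factor and interleukin 34 (ENSG00000182578.14, chr5:150053291-150113372, minus strand). With 10 peaks its window had 6.25 peaks per 100 kb, and 98.6% of protein-coding genes had a lower density. The peaks covered 5902 bp, or 3.69% of the window, and were 246 to 1604 bp long. None covered the start site of the canonical transcript at position 150086554, which lay in a stretch of 37.5 kb without a peak. The start site of the longest annotated transcript, at position 150113372, was covered by a peak of 596 bp whose midpoint was 5 bp away.

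The other CSF1R peaks formed groups on both sides of this stretch. Upstream, a peak of 1057 bp (150115112 to 150116168) lay at an exon of the neighbouring kinase gene PDGFRB and a peak of 308 bp (150103088 to 150103395) in the first part of the CSF1R body, and both held a GATA motif and an E-box in the central 200 bp. Inside the gene were a peak of 342 bp in intron 10 and one of 246 bp at exon 15, the shortest of all 25. Beyond the 3′ end, 5 peaks lay within HMGXB3, and for 3 of the 10 peaks the nearest canonical start site was that of HMGXB3. Among the 5 within HMGXB3 was the longest peak at any of the genes, 1604 bp at 150049231 to 150050834. This longest peak lay 2456 bp past the end of CSF1R, whose canonical start site was the nearest. It was number 316 in length among all 11046. Over its whole length it held 5 E-boxes, 3 RUNX, 2 GATA and 2 AP-1 motifs and 1 CEBP motif. The composite shown above was in the HMGXB3 peak of 413 bp and was centred 102 bp from its midpoint, so it does not lie whole in the central 200 bp counted below.

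KIT, the receptor of stem cell factor (ENSG00000157404.17, chr4:54657267-54740783, plus strand), FLT3, the receptor of FLT3 ligand (ENSG00000122025.15, chr13:28003274-28100592, minus strand), and TEK, an angiopoietin receptor of endothelium and stem cells (ENSG00000120156.22, chr9:27109141-27230174, plus strand), had 0 peaks each. The nearest peak of KIT was 85278 bp upstream of its body, 801 bp long at 54571188 to 54571988. It held a GATA motif and, on the minus strand, a RUNX motif in the central 200 bp, and 35543 bp separated its midpoint from the nearest start site of any transcript. At FLT3 the nearest peak was 229346 bp upstream, closer to the start site of FLT1, so its window stayed empty even at 200 kb on each side.

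TEK differed from both in scale. Its nearest peak was 5324141 bp away, and the gene lay in a stretch of 12.7 Mb without a peak (19902079 to 32554315) that held 41 protein-coding genes and no unsequenced base of hg38. Of the 11023 stretches between neighbouring peaks, whose median was 30.5 kb, it was the number 6 in length. The empty stretches at KIT and FLT3 were 814 and 650 kb long and ranked 832 and 1007. The empty window of TEK is shared with the other genes of the stretch, so 0 peaks there cannot be read as a measurement of TEK itself. Whether any read fell in the stretch, whether the cells used carried this DNA, whether they were NB4 and whether the peak list is complete there was not tested.

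EPOR, the erythropoietin receptor on which red cell precursors depend (ENSG00000187266.14, chr19:11377207-11384342, minus strand), was the single gene of the 10 whose canonical start site was covered by a peak, as for 1.59% of all protein-coding genes. A start site of any annotated transcript was covered at 2 genes, EPOR and CSF1R (3.65% of all). The EPOR start site peak was 343 bp long (11384047 to 11384389), with its midpoint 96 bp into exon 1. A gap of 253 bp, the smallest between any neighbouring peaks at these genes, separated it from a peak of 747 bp (11383047 to 11383793) in intron 1. The third, of 703 bp, lay 23202 bp past the 3′ end in intron 8 of CCDC159, 1779 bp from the start of PLPPR2. The start site peak held 3 E-boxes, including the pair shown above, and the intron 1 peak 1. No GATA motif was present over the whole length of any of the 3 peaks.

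CSF3R, the receptor of granulocyte colony-stimulating factor (ENSG00000119535.20, chr1:36466043-36483278, minus strand), had 5 peaks, or 4.26 per 100 kb, more than 96.3% of protein-coding genes. One of 260 bp lay in intron 8. The other 4 lay upstream, with midpoints 6661, 9903, 10986 and 34794 bp from the start site and lengths of 459, 1087, 433 and 383 bp. The first 3 of these were spaced by gaps of 2469 and 323 bp. The peak of 1087 bp held the 2 GATA motifs shown above, and the most distant one held the composite. The central 31 bases of the nearest upstream peak occurred 459 times in hg38, so reads there may not have had a unique position.

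IL6R, the interleukin 6 receptor chain (ENSG00000160712.13, chr1:154405193-154469450, plus strand), had 3 peaks. The longest, 591 bp at 154384609 to 154385199, was centred 20439 bp upstream of the start site and held 4 GATA motifs over its length, 2 of them in the central 200 bp. A peak of 290 bp lay in intron 6 and held a GATA motif, and one of 252 bp in an intron of SHE, 4995 bp from the start of TDRD10, held the composite. All 3 IL6R peaks thus held a GATA motif in the central 200 bp, and none was within 3 kb of a start site.

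CSF2RB, the beta chain shared by the receptors of interleukin 3, interleukin 5 and granulocyte-macrophage colony-stimulating factor (ENSG00000100368.15, chr22:36913628-36940439, plus strand), and IL3RA, the alpha chain of the interleukin 3 receptor (ENSG00000185291.12, chrX:1336616-1382689, plus strand), had 1 peak each. The CSF2RB peak was 547 bp long, 41611 bp past the 3′ end, and the start site nearest to it was that of TEX33 at 25527 bp. The IL3RA peak was 351 bp long and 775 bp past the 3′ end. Both held a composite. IL3RA is in the pseudoautosomal region, and the central 31 bases of its peak occurred 2 times in hg38, on X and Y, while the list had no peak on Y. The start sites of CSF2RB and IL3RA lay in stretches without a peak of 500 kb and 1.1 Mb.

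CD34 (ENSG00000174059.17, chr1:207880972-207911402, minus strand) had 2 peaks. One lay upstream of the start site and held a composite. The other, of 743 bp, lay 7208 bp past the 3′ end at the long noncoding RNA gene MIR29B2CHG, and held an E-box in the central 200 bp and 3 GATA motifs over its whole length. Neither was within 3 kb of a start site.

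The 25 peaks were next compared with all 11046 peaks of the library in length and place. Their median length was 433 bp (quartiles 308 and 596) against 451 bp (314 and 666), and 3 of 25 (12%) exceeded 1 kb against 10.5%. A start site of any transcript lay within 3 kb of the midpoint for 12 of 25 (48.0%, 30 to 66.5%) against 35.6%, and the interval includes that share. These 12 were 8 peaks of CSF1R, 3 of EPOR and 1 of CSF3R, and without CSF1R the share was 26.7% of 15 peaks. A centre of 31 bases with further copies in the genome was found in 2 of the 25 (8.0%), the peaks of CSF3R and IL3RA given above, against 10.7% of all peaks. By position, 10 peaks lay beyond the 3′ end, 7 upstream and the remaining 8 in the gene body. A peak in the body was found at 4 of the 10 genes (CSF1R, CSF3R, EPOR and IL6R) against 16.5% of all genes. For 17 of the 25 the nearest canonical start site was that of the gene itself, and for 8 that of another gene.

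**Figure D3:**
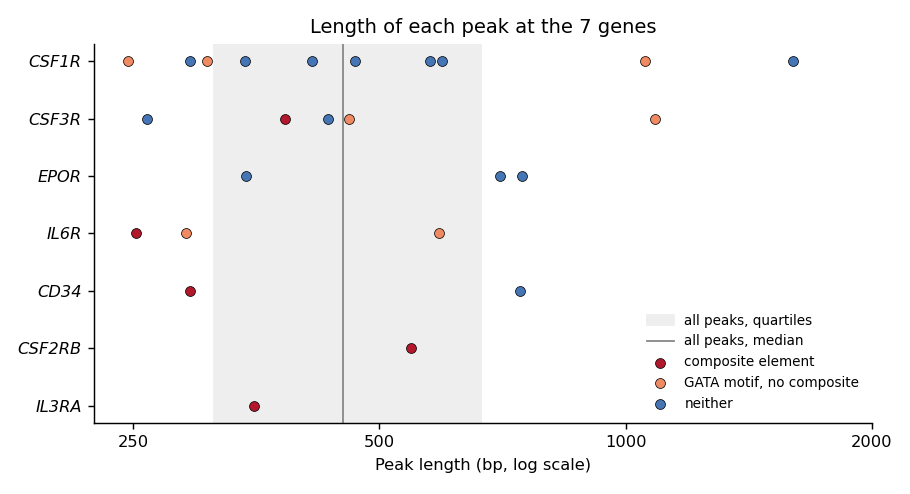
Length of each of the 25 peaks in bp (log axis) by gene, coloured by the motif in the central 200 bp, with the median of all 11046 peaks as a line and their quartiles as a grey band. CSF1R spans the whole range from 246 to 1604 bp.

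To investigate the motifs, the 200 bp around the midpoint of each peak were searched on both strands, and windows of the same length centred 1 kb to either side served as flanks. Flanks that fell in a neighbouring peak were kept, as happened at EPOR, CSF1R and CSF3R. A GATA motif was present in 12 of 25 peaks (48.0%, 30 to 66.5%) and in 47.1% of all peaks, against 26.0% of the 50 flanks and 27.6% of all flanks. The composite was present in 5 of 25 (20.0%, 8.86 to 39.1%) and in 11.1% of all peaks, against 1 of 50 flanks (2.0%) and 1.63% of all flanks. Each composite site is also counted as a GATA site. The interval at these genes includes the share over all peaks, and over whole peaks the shares were 24% and 22.4%.

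The 5 composites belonged to 5 genes, CSF2RB, CSF3R, IL3RA, IL6R and CD34. All 5 had AGATAA as the GATA part, as did 54.5% of 1263 composite sites in all peaks. The spacer was 8 bases in 4 of them and 7 in the one of IL6R, against 62.2% and 37.8% over all peaks.

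An E-box, searched as CAGCTG or CAGATG or its reverse complement CATCTG, was present in 9 of 25 peaks (36.0%, 20.2 to 55.5%), in 33.8% of all peaks and in 20.0% of the 50 flanks. A RUNX motif, TGTGGT or TGCGGT, was present in 1 of 25 (4.0%, 0.71 to 19.5%), the CSF1R intron 10 peak, against 20.5% of all peaks and 24% of the 50 flanks. Over whole peaks the RUNX count was 7 of 25 (28.0%) against 43.0%. An ETS motif, AGGAAGT or CGGAAGT, was present in 0 of 25, an interval that reaches 13.3%, against 6.19%. An AP-1 motif, TGACTCA or TGAGTCA, was present in 1 of 25 (4.0%) against 9.48%, and a CEBP motif, TTGC and AA with any 2 bases between them, in 3 of 25 (12%) against 7.44%. A match of letters is a description and shows no binding of the factor.

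**Figure D4:**
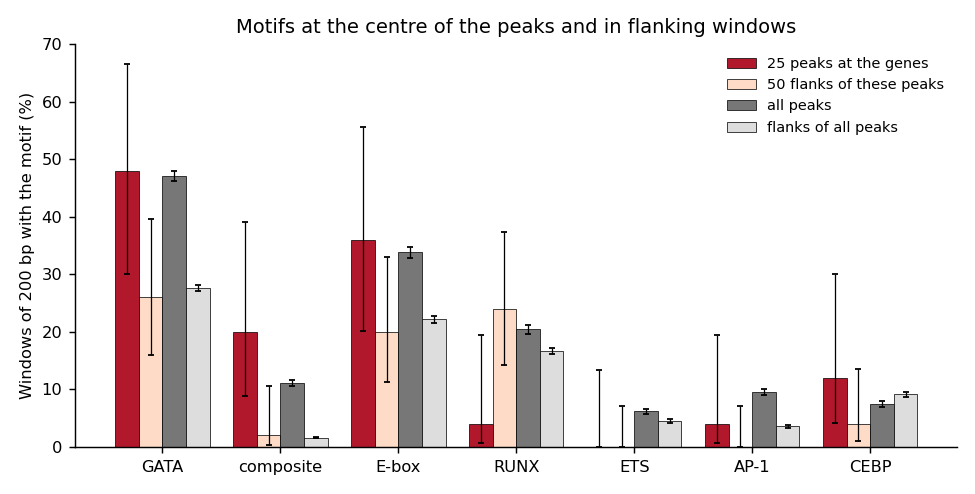
Percent of 200 bp windows holding each motif, for the 25 peaks, their 50 flanks, all 11046 peaks and their flanks, with bars from 0 and 95% Wilson intervals as error lines. GATA is at 48.0% and 47.1% in both sets of peaks, and RUNX at 4.0% against 20.5%.

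The peaks with GATA motifs were mostly those away from start sites. Of the 13 peaks farther than 3 kb from any start site, 10 held a GATA motif (76.9%, 49.7 to 91.8%) and 5 the composite (38.5%, 17.7 to 64.5%). Of the 12 peaks within 3 kb, 2 held a GATA motif (16.7%, 4.7 to 44.8%) and 0 the composite, an interval that reaches 24.2%. Over all peaks the shares were closer together, 49.9% and 42.1% for GATA and 11.7% and 10% for the composite. E-boxes were present in 4 of the 13 distant peaks and 5 of the 12 near ones. The split of the motifs by distance was not among the planned results. Its shares were taken only with the 3 kb limit and the central 200 bp, and they depend on the motif window. Over whole peaks a GATA motif was in 6 of the 10 CSF1R peaks instead of 3, and those gained were all within 3 kb. The peaks gained at CSF3R (4 instead of 3) and CD34 (2 instead of 1) were farther away. Shares with another distance limit were not taken. Since 8 of the 12 near peaks were at CSF1R, the shares were also taken without it, an alternative chosen after seeing the data. GATA motifs were then in 9 of 11 distant peaks (81.8%) and in 0 of 4 near ones. These shares describe few peaks, several of them neighbours at 1 gene, and the difference was not tested.

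**Figure D5:**
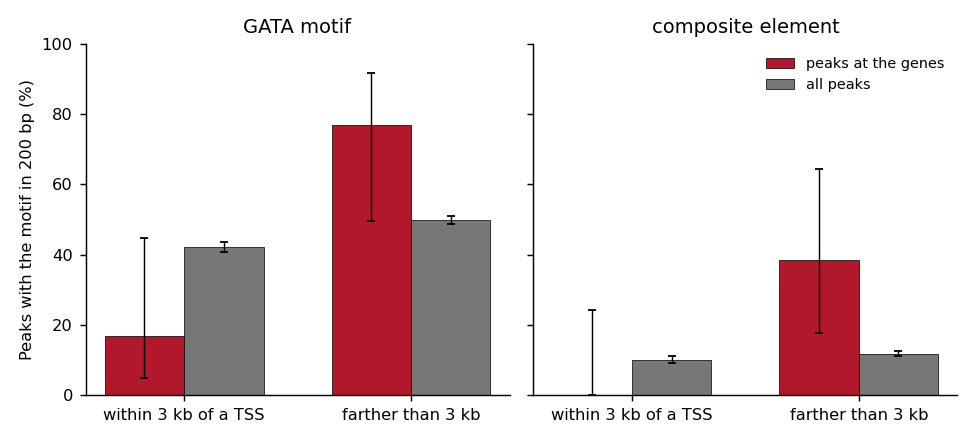
Percent of peaks with a GATA motif (left) or the composite (right) in the central 200 bp, within and beyond 3 kb of a start site, for the peaks at the 10 genes and for all peaks, with 95% Wilson intervals. At the genes GATA was in 76.9% of distant and 16.7% of near peaks, over all peaks in 49.9% and 42.1%.

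The other genes of these pathways were read with the same window, and the counts stand beside the 44.8% of all protein-coding genes. Among 18 other chains of hematopoietin receptors, 8 had a peak, and 5 peaks each were found at IL6ST, the signalling partner of IL6R, at IL9R and at LEPR. Among 6 related tyrosine kinases 4 had one, led by FLT1 with 6, TIE1, a partner of TEK, with 5 and PDGFRB with 4, and the 4 of PDGFRB are also among those of CSF1R. Among 13 ligands 9 had a peak, and CSF1, a ligand of CSF1R, had 8. CSF2 and IL3, which lie next to each other and encode ligands of receptors with the CSF2RB chain, had 3 each, as did IL34, another ligand of CSF1R, and the 23 counts of the ligands came from 20 peaks.

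Downstream of the receptors, 9 of 11 JAK and STAT genes had a peak. The neighbours STAT3, STAT5A and STAT5B had 9 each, many of them the same, since the 42 counts of this list came from 24 peaks. Of 15 inhibitors and adaptors 13 had one, led by PIK3R1, a regulatory subunit of PI3 kinase, with 8, the cytokine-induced inhibitor CISH with 5 and, tied at 4, the adaptor GRB2 and the phosphatase INPP5D. Of 3 sialomucins of the CD34 family 1 had a peak, PODXL with 2.

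Marker genes of cell types were read in the same way, since the peaks were taken from a line labelled as promyelocytic. Of 5 promyelocyte markers 3 had a peak, AZU1, PRTN3 and ELANE, which are neighbours and had 3 peaks among them. All 6 red cell markers had one, with 38 peaks in all, led by the anion exchanger SLC4A1 with 17 and the fetal globin HBG2 with 7. Megakaryocyte markers had a peak in 2 of 4 (GP9 with 5 and ITGA2B with 2), mast cell and basophil markers in 2 of 4 (HDC with 4 and MS4A2 with 1) and endothelial markers in 1 of 4 (PECAM1 with 3). A peak is no measure of expression, and what these counts have to do with those at the receptor genes was not tested.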

How the data were processed

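CUT&Tag libraries of NB4 cells were made with an LDB1 antibody and with IgG, 1 each. Per the submitters' processing notes, the authors used hg38, Bowtie2 2.4.4 and MACS3 3.0. For each LDB1 peak the authors deposited its start, its end and its length, with no score, q-value or summit, so the midpoint stood for the summit. The names of the list and of its peaks carried NB4 and LDB1, while its columns named no sample. The list was therefore assigned to the LDB1 library by its antibody. Whether IgG was the control of peak calling, and how duplicates and ambiguous reads were treated, is not given in the sources used here. Regions repeated in the genome or open without LDB1 may therefore be among the peaks. Read depth is unknown. No peak list of the IgG library was analysed here.

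Gene bodies, transcripts and canonical start sites came from GENCODE release 44, and sequences and the copies of the central 31 bases from hg38 without alternate contigs. Scripts ran under Python 3.11.15 with SciPy 1.17.1, pandas 2.3.3, numpy 2.4.6, numba 0.67.0 and matplotlib 3.10.9. Tested on simulated data, peak counts were right for 2000 of 2000 genes, 1000 of 1000 planted composites were found, and 300 of 300 nearest distances matched a direct search. With 1 library per group no p-value was computed.

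The members, gene lists and markers were chosen with earlier results of these data known, and the split by receptor class after seeing the counts. The split of motifs by distance to a start site was not planned. Named were all 10 members, the longest peak, the peak nearest the start site and each composite peak of a member, the genes nearest to member peaks, and at most 3 genes with the most peaks per list, with IL34 and INPP5D added for ties. Alternatives were windows of 3, 10 and 100 kb, the longest 5523 peaks, peaks whose central bases occur once, peaks under 1000 bp apart merged, start sites within 1 kb, motif windows of 100 bp and whole peaks. The sequence of 1 composite stretch and some genes of the lists are not reported here.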

Additional observations from a re-analysis of the deposited data

How the results depend on the processing

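With smaller windows the 25 peaks at the genes became 12 (3 kb) and 15 (10 kb), and in the 10 kb windows the composite was in 6.67% and CEBP in 0.0% of peaks. The longest 5523 peaks left 12 peaks, or 0.772 per 100 kb over the windows together. The mean of the densities per gene over all protein-coding genes, a different measure, was then 0.445. A start site limit of 1 kb gave 24% of peaks near a start site. Motif windows of 100 bp gave 8.0% for the composite, 16.0% for the E-box and 4.0% for CEBP, and whole peaks 68.0% for GATA, 68.0% for the E-box and 28.0% for RUNX. Without CSF1R, chosen after seeing the data as was leaving out TEK, 15 peaks remained, 26.7% near a start site, with RUNX and AP-1 in 0.0%. These 17 values moved by more than their counting interval, or for counts by more than 1.5 times, and the other 58 did not. Genes with a peak numbered 5 of 10 (3 kb), 6 (10 kb), 8 (100 kb), 6 (longest peaks) and 6 (central bases found once), where 19.7%, 25.1%, 58.4%, 32.2% and 42.2% of all protein-coding genes had one, and 7 of 9 without TEK. No paired analysis was possible because the LDB1 and the IgG group each held a single library. The unknown read depth limits what a missing peak shows, and 25 peaks limit the precision of each share.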
